A study of Mus musculus with 8 samples.

Results

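SOX9 signal was examined at 10 immediate early response genes of the mouse, namely the zinc finger factors Egr1, Egr2 and Egr3, the nuclear receptors Nr4a1, Nr4a2 and Nr4a3, the effectors Arc, Ier2 and Dusp1, and Klf4. They were chosen by name, as genes known for a rapid transcriptional response, and they are 10 of the 21853 protein-coding genes annotated on chromosomes 1 to 19, X and Y. Immediate early genes are switched on within minutes of a stimulus by factors that are already present in the cell, such as the serum response factor with its ETS partners and CREB, so that no new protein has to be made first. In the nervous system they are widely used to mark neuronal activity and the early response to damage, and glia and vascular cells use them too. SOX9, a factor with an HMG-box DNA-binding domain, is found in astrocytes and ependymal cells of the adult spinal cord.

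The study profiled SOX9 by CUT&Tag, in which antibodies tether a transposase to a chromatin protein so that the DNA around it is cut out and sequenced. The animals were wild-type (WT) mice, given in the study's methods as C57BL/6, with an age of 8 to 12 weeks in the methods and of 2 to 6 months in the reporting summary. Cords were taken without an injury (uninjured) or 1 day after a contusion injury (1 d.p.i.), as 5-mm segments around the injury or at the matching level, with 2 samples per condition, 1 male (M) and 1 female (F), and 2 to 4 animals pooled for a condition. The sample records name the DNA stain 7-AAD as the basis of sorting, while the methods refer to a sort in which NEUN or SOX10 antibodies were also used, and no cell type is given as selected. Each sample supplied 150000 nuclei to the assay. From each sample 20% of the nuclei were kept as a control, treated with the secondary antibody and without the one against SOX9, which gave 8 libraries, 2 in each of 4 groups.

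Depth differed widely between libraries. Of the SOX9 libraries, uninjured M held 1891276 fragments, uninjured F 7216730, 1 d.p.i. M 2529356 and 1 d.p.i. F 2385009. The controls had far fewer, with 22752 in uninjured M, 46846 in uninjured F, 52950 in 1 d.p.i. M and 10906 in 1 d.p.i. F, so that even the deepest of them fell short of the shallowest SOX9 library by a factor of 35.7. The controls also stood apart in their content. Of the control fragments that stood alone in the coverage, 93.5% (uninjured M), 82.3% (uninjured F), 86.0% (1 d.p.i. M) and 91.4% (1 d.p.i. F) matched a SOX9 fragment at both ends, while at positions moved by 1000 bp at most 0.0428% did. These are matches in any SOX9 library, and against a single SOX9 library the control percentages were 13.1% to 42.8%. Between single SOX9 libraries the shared percentage was 0.455% to 2.31%. In the loci of the 10 genes, 68 of 79 such control fragments had a match in a SOX9 library. The controls were therefore given as values and kept out of the comparison of the conditions. Signal on chromosome Y relative to the library mean was 0.331 and 0.187 in the male SOX9 libraries and 0.0292 and 0.0421 in the female ones, in the order uninjured and 1 d.p.i.

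For each gene, coverage was averaged over 3 windows, the transcription start site (TSS) of the principal transcript with 1 kb on each side (the promoter), the gene body, and 20 kb on each side of the gene (the flanks). Each average is per base and is given as a multiple of the mean coverage of its library, which removes differences in total depth. Promoter medians over all genes tested still differed between libraries, at 3.85 and 6.86 in uninjured cords and 5.18 and 4.50 at 1 d.p.i. (M and F), and under a scaling by the median log ratio the standard error at the Egr1 promoter was 0.297 in place of 0.758, with 10 coding genes called at promoters and 0 of them members. The 4 SOX9 libraries were compared with limma on the log2 of these values plus 0.5, a scale that understates the fold change of low genes, with adjustment over all coding genes at 0.5 times the library mean or more. Errors of log2 changes are standard errors from this fit (n = 2 libraries a condition), and p-values measure only the spread between these samples. At promoters and in flanks this spread was pooled over all genes, so that an error there is not the gene's own. In bulk tissue, fewer cells of a type and less signal per cell cannot be told apart.

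None of the 10 genes passed an adjusted p of 0.05 in limma in any window. At promoters 0 of 10 were called, against 2 of 18161 coding genes (0.011%), and 0 of 10 had an unadjusted p under 0.05, against 159 higher and 161 lower genes in all. Over gene bodies 0 of 10 were called, against 0 of 17763 (0%; 270 with sex as a block, again with 0 members), with 0 of 10 at an unadjusted p under 0.05, against 374 higher and 333 lower genes. In the flanks 0 of 9 were called, against 5 of 17555 (0.0285%), with 0 of 9 at an unadjusted p under 0.05, against 322 higher and 197 lower genes, and Nr4a2 was too low there to be tested. Both libraries at 1 d.p.i. lay above both uninjured libraries for 0 members at promoters (8.23% of all genes tested), for Nr4a2 and Dusp1 over the body (13.3%) and for Klf4 in the flanks (11.9%). They lay below both for Egr3 at the promoter (14.5%), and for 0 members over bodies (16.2%) and in flanks (14.8%). The calls outside the list, named after their values were seen, were Gm11361 and Ftl1-ps1 at promoters and Psg16, Sgk1, Serpina3m, Cebpd and Bcl3 in the flanks, all higher at 1 d.p.i. Leaving out any 1 SOX9 library took the promoter calls to 0, leaving out the male or the female library at 1 d.p.i. took the body calls to 10 and 33, and the flank calls became 41 without uninjured M, 35 without uninjured F and 0 without either library at 1 d.p.i., with 0 members called each time.

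Egr1, Egr2 and Egr3 encode zinc finger factors that bind a shared GC-rich element. Egr1 (ENSMUSG00000038418.7, chromosome 18, 34859823 to 34864984 in GRCm38/mm10, plus strand), an early responder to growth factors and neuronal firing, had the highest promoter signal of the 10 genes by the mean over the SOX9 libraries, close to Dusp1, which was higher in 1 d.p.i. M. Its coverage, as a multiple of the library mean here and below, was 28.2 and 41.9 in the uninjured libraries (M and F) and 36.2 and 28.2 in those at 1 d.p.i. The female uninjured library was the highest, the male library at 1 d.p.i. came next, and the conditions overlapped. The group means were 35.0 ± 9.70 and 32.2 ± 5.69 (SD, n = 2 each), with a log2 change of −0.10 ± 0.76 (limma, adjusted p = 1.00). Egr1 also ranked high over its body, at percentile 99.8 of all coding genes, with 20.4 and 31.7 in uninjured cords and 28.3 and 17.9 at 1 d.p.i. (M and F). Again the male value was higher and the female value lower at 1 d.p.i. In the flanks the signal of Egr1 lay upstream more than downstream in each SOX9 library, at 6.07 to 8.05 over the upstream 20 kb against 1.36 to 2.33 over the downstream 20 kb. The upstream side also holds the TSS of Reep2, whose own promoter had 7.75, 12.3, 11.6 and 8.40 in the order uninjured M, uninjured F, 1 d.p.i. M and 1 d.p.i. F.

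Egr2 (ENSMUSG00000037868.15, chromosome 10, 67535475 to 67542188, plus strand) is best known for hindbrain patterning and for myelination by Schwann cells. Coverage at its promoter was 3.77 in uninjured M, 9.05 in uninjured F, 9.33 in 1 d.p.i. M and 4.53 in 1 d.p.i. F. The 2 high and the 2 low libraries were thus split across both conditions. The log2 change was 0.14 ± 0.67 (limma, adjusted p = 1.00), made of 1.20 between the male and −0.92 between the female libraries. These values rest on 7, 52, 18 and 9 fragments in the order uninjured M, uninjured F, 1 d.p.i. M and 1 d.p.i. F. Its TSS lies 2394 bp inside the gene record, and at the 5′ end of the record coverage was lower, at 0.256, 3.93, 1.74 and 1.17 in that order. Egr3 (ENSMUSG00000033730.4, chromosome 14, 70077203 to 70082614, plus strand), needed for muscle spindle development and induced by neuronal activity, was lower than most coding genes. Its promoter had 2.34 and 4.61 in the uninjured libraries (M and F) and 1.88 and 2.33 in those at 1 d.p.i. The libraries at 1 d.p.i. both lay below the uninjured ones, with 1 d.p.i. F under uninjured M by a narrow margin, on 4 fragments in each. The log2 change was −0.55 ± 0.71 (limma, adjusted p = 1.00), and with a window of 500 bp on each side of the TSS it was 0.092. Over the body of Egr3 the values were 1.07 and 1.35 in uninjured cords and 1.28 and 0.824 at 1 d.p.i. (M and F), close to the library mean and overlapping between the conditions.

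Nr4a1, Nr4a2 and Nr4a3 encode orphan nuclear receptors, which act without a known classical ligand and bind DNA as constitutively active factors. Nr4a1 (ENSMUSG00000023034.7, chromosome 15, 101254269 to 101274795, plus strand), also called Nur77, had at its promoter 8.66 in uninjured M, 7.90 in uninjured F, 9.58 in 1 d.p.i. M and 5.57 in 1 d.p.i. F. The uninjured libraries lay between the others, and the log2 change was −0.17 ± 0.67 (limma, adjusted p = 1.00). Over its body the values were 4.35 and 6.23 in uninjured cords and 6.14 and 4.39 at 1 d.p.i., with close group means, 5.29 ± 1.33 and 5.26 ± 1.24 (SD, n = 2 each), and the log2 change of −0.0037 was 0.028 under a scaling by the median log ratio. Nr4a2 (ENSMUSG00000026826.13, chromosome 2, 57106830 to 57124003, minus strand), also called Nurr1 and required for midbrain dopamine neurons, had the lowest promoter signal of the 10 by the mean over the SOX9 libraries, with Egr3 lower in both male ones. Its coverage was 3.81 in uninjured M, 1.99 in uninjured F, 2.52 in 1 d.p.i. M and 1.04 in 1 d.p.i. F, on 4, 12, 4 and 2 fragments. The male library was the higher in each condition, the conditions overlapped, and the log2 change was −0.60 ± 0.73 (limma, adjusted p = 1.00).

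Direction at Nr4a2 depended on the window. Over the body its coverage was 0.962 and 0.783 in the uninjured libraries (M and F) and 1.15 and 1.11 in those at 1 d.p.i. Both libraries at 1 d.p.i. were the higher ones, by a log2 change of 0.25 ± 0.17 (limma, unadjusted p = 0.206, adjusted p = 1.00), at levels near the library mean. The change at the promoter was 0.42 on the log2 scale with 2 kb on each side of the TSS and 0.28 at the 5′ end of the gene record, which lies 8965 bp from the TSS used. Its flanks had 0.663 and 0.281 in uninjured cords and 0.492 and 0.424 at 1 d.p.i. (M and F), the lowest of the 10 genes in each SOX9 library. Nr4a3 (ENSMUSG00000028341.9, chromosome 4, 48045153 to 48086447, plus strand), also called Nor1, had at its promoter 7.93 and 11.7 in the uninjured libraries (M and F) and 13.8 and 8.73 in those at 1 d.p.i. The 2 highest values came from different conditions, and the log2 change was 0.17 ± 0.67 (limma, adjusted p = 1.00). Over its long body the signal was near the library mean, at 1.53 and 0.984 in uninjured cords and 1.11 and 1.01 at 1 d.p.i. The flanks of Nr4a3 had 1.59 and 1.97 in uninjured cords and 2.69 and 1.48 at 1 d.p.i., with the male library at 1 d.p.i. the highest.

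Arc (ENSMUSG00000022602.14, chromosome 15, 74669083 to 74672570, minus strand) encodes a synaptic protein that promotes the removal of AMPA receptors and is widely used as a marker of neuronal activity. Its promoter coverage was 15.3 in uninjured M, 28.3 in uninjured F, 21.1 in 1 d.p.i. M and 13.0 in 1 d.p.i. F. The female libraries were the highest and the lowest, and the group means of 21.8 ± 9.21 and 17.0 ± 5.75 (SD, n = 2 each) differed by less than the spread, with a log2 change of −0.32 ± 0.70 (limma, adjusted p = 1.00). Over the body Arc stood at percentile 97.3, with 8.16 and 13.2 in uninjured cords and 9.72 and 8.83 at 1 d.p.i., and in its flanks the values were 4.49, 5.68, 4.52 and 4.68 in the order uninjured M, uninjured F, 1 d.p.i. M and 1 d.p.i. F. Ier2 (ENSMUSG00000053560.4, chromosome 8, 84661331 to 84662852, minus strand), a small nuclear protein induced by serum and growth factors, had at its promoter 7.38 in uninjured M, 16.0 in uninjured F, 18.6 in 1 d.p.i. M and 9.37 in 1 d.p.i. F. The 2 highest libraries were again 1 from each condition. The log2 change was 0.27 ± 0.68 (limma, adjusted p = 1.00), and with 500 bp on each side of the TSS it was −0.14. The body of Ier2, most of which lies inside the promoter window, had 3.58 and 14.7 in the uninjured libraries (M and F) and 17.6 and 12.8 in those at 1 d.p.i. The male uninjured library was far below the other libraries, and the log2 change was 0.98 ± 0.70 (limma, unadjusted p = 0.215, adjusted p = 1.00), with 0.031 when that library was left out and 1.93 without uninjured F.

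Dusp1 (ENSMUSG00000024190.7, chromosome 17, 26505590 to 26562128, minus strand) encodes a dual-specificity phosphatase that switches off MAP kinases and so limits the signalling that induces early genes. At its promoter coverage was 22.2 in uninjured M, 33.6 in uninjured F, 42.6 in 1 d.p.i. M and 28.0 in 1 d.p.i. F. The male libraries were the lowest and the highest, with a log2 change of 0.33 ± 0.75 (limma, adjusted p = 1.00). Its gene record spans 56539 bp, and its principal TSS lies 53609 bp from the 5′ end of the record. At that far end, which is close to the TSS of Ergic1, coverage was 6.35 and 7.86 in the uninjured libraries (M and F) and 2.39 and 2.26 in those at 1 d.p.i., a log2 change of −1.42 ± 0.67 (limma, unadjusted p = 0.0349, adjusted p = 1.00). Over the whole record the values were 3.44 in uninjured M, 3.79 in uninjured F, 5.01 in 1 d.p.i. M and 4.44 in 1 d.p.i. F. The pair at 1 d.p.i. was thus above both uninjured libraries, with group means of 3.62 ± 0.245 and 4.72 ± 0.399 (SD, n = 2 each) and a log2 change of 0.34 ± 0.25 (limma, unadjusted p = 0.227, adjusted p = 1.00). The flanks of Dusp1 had 4.37 and 4.08 in uninjured cords and 4.25 and 3.30 at 1 d.p.i., with a log2 change of −0.15 ± 0.31.

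Klf4 (ENSMUSG00000003032.8, chromosome 4, 55527143 to 55532466, minus strand), a Krüppel-like factor known from pluripotency, epithelia and endothelium, had the highest log2 change of the 10 promoters. Its coverage was 3.15 and 10.4 in the uninjured libraries (M and F) and 12.1 and 9.42 in those at 1 d.p.i. The male uninjured library, with 5 fragments (95% Poisson interval 1.62 to 11.7), lay below the other libraries, and the female uninjured library lay between those at 1 d.p.i. The log2 change was 0.82 ± 0.67 (limma, unadjusted p = 0.219, adjusted p = 1.00), with 1.79 between the male and −0.14 between the female libraries. Without uninjured M it was 0.031, and without uninjured F 1.62. Over the body of Klf4 coverage was 1.50 and 2.61 in uninjured cords and 2.28 and 3.68 at 1 d.p.i. (M and F). In its flanks it was 1.19 in uninjured M, 1.21 in uninjured F, 1.62 in 1 d.p.i. M and 1.54 in 1 d.p.i. F. The flank values were higher in both libraries at 1 d.p.i., with a log2 change of 0.29 ± 0.19 (limma, unadjusted p = 0.123, adjusted p = 1.00), at little more than the library mean.

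**Figure D1:**
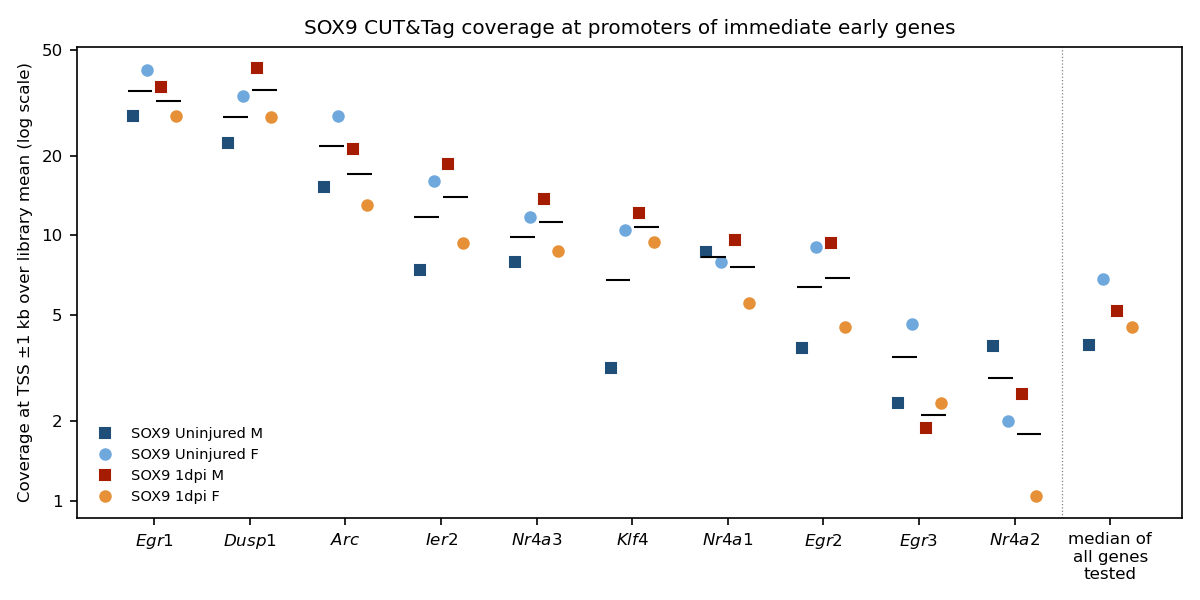
SOX9 CUT&Tag coverage at TSS ±1 kb as a multiple of the library mean (vertical axis, log scale) for the 10 genes and for the median of all genes tested (horizontal axis), with squares for M, circles for F and black bars for the mean of the 2 libraries of a condition. Egr1 and Dusp1 lie at 22.2 to 42.6 in all 4 libraries, Egr3 and Nr4a2 at 1.04 to 4.61, and the conditions overlap for every gene but Egr3.

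The 10 promoters spanned a wide range of SOX9 signal. In order of the mean over the 4 SOX9 libraries (± SD over libraries) they were Egr1 (33.6 ± 6.70), Dusp1 (31.6 ± 8.68), Arc (19.4 ± 6.84), Ier2 (12.8 ± 5.33), Nr4a3 (10.5 ± 2.71), Klf4 (8.78 ± 3.91), Nr4a1 (7.93 ± 1.72), Egr2 (6.67 ± 2.93), Egr3 (2.79 ± 1.23) and Nr4a2 (2.34 ± 1.16). The step from Dusp1 to Arc and the step from Egr2 to Egr3 were larger than the SD of both neighbours and were seen in 4 of 4 libraries. The other neighbours did not differ beyond their SD, although Arc was above Ier2 in 4 of 4 libraries. Percentiles here are ranks among all 21853 coding genes, which include those too low to be tested. Egr1 stood at percentile 99.2 and 97.7 in uninjured cords and 98.5 and 98.6 at 1 d.p.i. (M and F), and Dusp1 at 98.3, 96.0, 99.1 and 98.6. Klf4 moved from percentile 52.8 in uninjured M to 83.2 in 1 d.p.i. M, with 70.7 and 81.3 in the female libraries. Egr3 was below percentile 50 in all 4 SOX9 libraries. The median percentile of the 10 genes was 80.4 and 72.4 in uninjured cords and 84.8 and 80.2 at 1 d.p.i.

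Promoter signal exceeded flank signal at most of these genes. The ratio of promoter to flank coverage had a median over the 10 genes of 3.03 and 5.48 in the uninjured libraries (M and F) and 5.13 and 2.61 in those at 1 d.p.i. Over 18149 coding genes the median ratio was 2.18 and 3.22 in uninjured cords and 2.77 and 2.48 at 1 d.p.i. Dusp1 had ratios of 5.09, 8.24, 10.0 and 8.49 and Egr1 of 7.58, 8.07, 8.87 and 6.93, in the order uninjured M, uninjured F, 1 d.p.i. M and 1 d.p.i. F. Both were high in every SOX9 library. Nr4a1, whose flanks hold the start sites of Atg101 and 6030408B16Rik, had ratios of 2.07, 1.29, 1.91 and 1.38 in that order. At Egr3 the ratio ranged from 0.955 in 1 d.p.i. M to 2.41 in uninjured F. Egr2 was the gene with more flank signal downstream than upstream in each library, at 2.60 to 3.05 downstream, while upstream it had 0.987 and 0.722 in uninjured cords and 0.613 and 1.296 at 1 d.p.i. (M and F). Ado starts 11086 bp downstream of the Egr2 TSS, and its promoter had 17.8, 20.7, 16.9 and 13.5, above that of Egr2 in all 4 libraries.

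Male and female libraries differed in the direction of the difference between conditions. Between the male libraries the median log2 change of the 10 promoters was 0.61, against 0.42 over all genes tested, and between the female libraries it was −0.63, against −0.54 over all genes. Of the 10 genes, 8 were higher at 1 d.p.i. in M and lower in F, and Egr3 and Nr4a2 were lower in both. The same combination, higher in M and lower in F, held for 55.1% of all genes tested, so that the split was shared by much of the genome. The median over both sexes was 0.018 for the 10 genes and −0.064 for all genes, and leaving out 1 library at a time took the median of the 10 genes to between −0.31 and 0.34. Counted as fragments per library total, 8 of the 10 promoters again had a ratio above 1 in M and below 1 in F, but not the same 8. Egr3 joined them, with a ratio of 1.12 in M on 4 and 6 fragments, and Nr4a3 left them, with 1.01 in F. The ratio of 1 d.p.i. to uninjured at the Egr1 promoter was 1.51 for M, with a 95% interval of 1.02 to 2.27, and 0.711 (0.524 to 0.949) for F, and it was the gene whose promoter intervals left out 1 on opposite sides, the same sides as the medians over all genes above. A ratio of 1 is thus not the level of the genome, and the shares of these intervals over all genes were not computed. An interval that leaves out 1 therefore sets no gene apart here. The male libraries had a ratio of 1.82 (1.21 to 2.77) at Dusp1, and the female ones 0.932 (0.672 to 1.28). For M and F in turn it was 4.04 (1.53 to 13.4) and 0.927 (0.524 to 1.57) at Klf4, and 1.06 (0.627 to 1.83) and 0.550 (0.348 to 0.840) at Arc. For the other 6 promoters both intervals held 1. Over bodies the intervals of 2 genes, Egr1 and Nr4a1, left out 1 on opposite sides, and in flanks those of 1 gene, Nr4a1. Over the body of Dusp1 both lay above 1, at 1.44 (1.16 to 1.79) for M and 1.19 (1.01 to 1.40) for F. These exact conditional intervals cover counting error only, and no test of M against F was possible with a single library of each.

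Signal along each locus was read in 1-kb tiles. The 10 loci, each the gene body with 20 kb on each side, hold 572 tiles, of which 201 reached 3 times the library mean and were tested with 172297 tiles genome-wide. Of the 201, 101 were higher and 100 lower at 1 d.p.i., and 0 passed an adjusted p of 0.05 in limma, against 68 genome-wide (0.0395%), with 7 tiles at an unadjusted p under 0.05, against 3748 higher and 3342 lower tiles genome-wide. Both libraries at 1 d.p.i. lay above both uninjured ones in 35 of the 201 tiles (15.5% genome-wide) and below both in 40 (16.4%). All 7 tiles with a low unadjusted p were higher at 1 d.p.i., 3 of them in Dusp1 and 1 each in the loci of Ier2, Klf4, Nr4a1 and Arc. This direction depended on the settings, with 4 higher and 4 lower tiles without the mean-variance trend and 12 higher and 5 lower with a filter at 2 times the library mean. The tile with the lowest adjusted p, chosen after its values were seen, was chromosome 17, 26530001 to 26531000, inside the Dusp1 gene record and upstream of its principal TSS. Its coverage was 0.872 in uninjured M, 4.91 in uninjured F, 12.9 in 1 d.p.i. M and 15.7 in 1 d.p.i. F. At 1 d.p.i. both libraries were well above both uninjured ones, with a log2 change of 2.43 ± 0.65 (limma, unadjusted p = 0.000195, adjusted p = 0.219). The filter took the mean over all SOX9 libraries, and this tile passed it mainly through those at 1 d.p.i. Its selection thus favoured a higher value there, here and in the fit below, and no conclusion is drawn from either. Without the female uninjured library this tile was called (log2 change 3.42), and so was a tile of Ier2, chromosome 8, 84661001 to 84662000 (log2 change 3.43). The single uninjured value of the Ier2 tile in that fit was 0.372. The Ier2 tile thus passed the filter there only through the libraries at 1 d.p.i., and no conclusion is drawn from its call. The Ier2 tile, which covers the 3′ part of the gene, had 0.372 and 8.59 in the uninjured libraries (M and F) and 5.07 and 15.4 in those at 1 d.p.i., so that the female uninjured library lay between those at 1 d.p.i. The genome-wide count of called tiles was 44 without uninjured M, 638 without uninjured F, 93 without 1 d.p.i. M and 13 without 1 d.p.i. F.

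**Figure D2:**
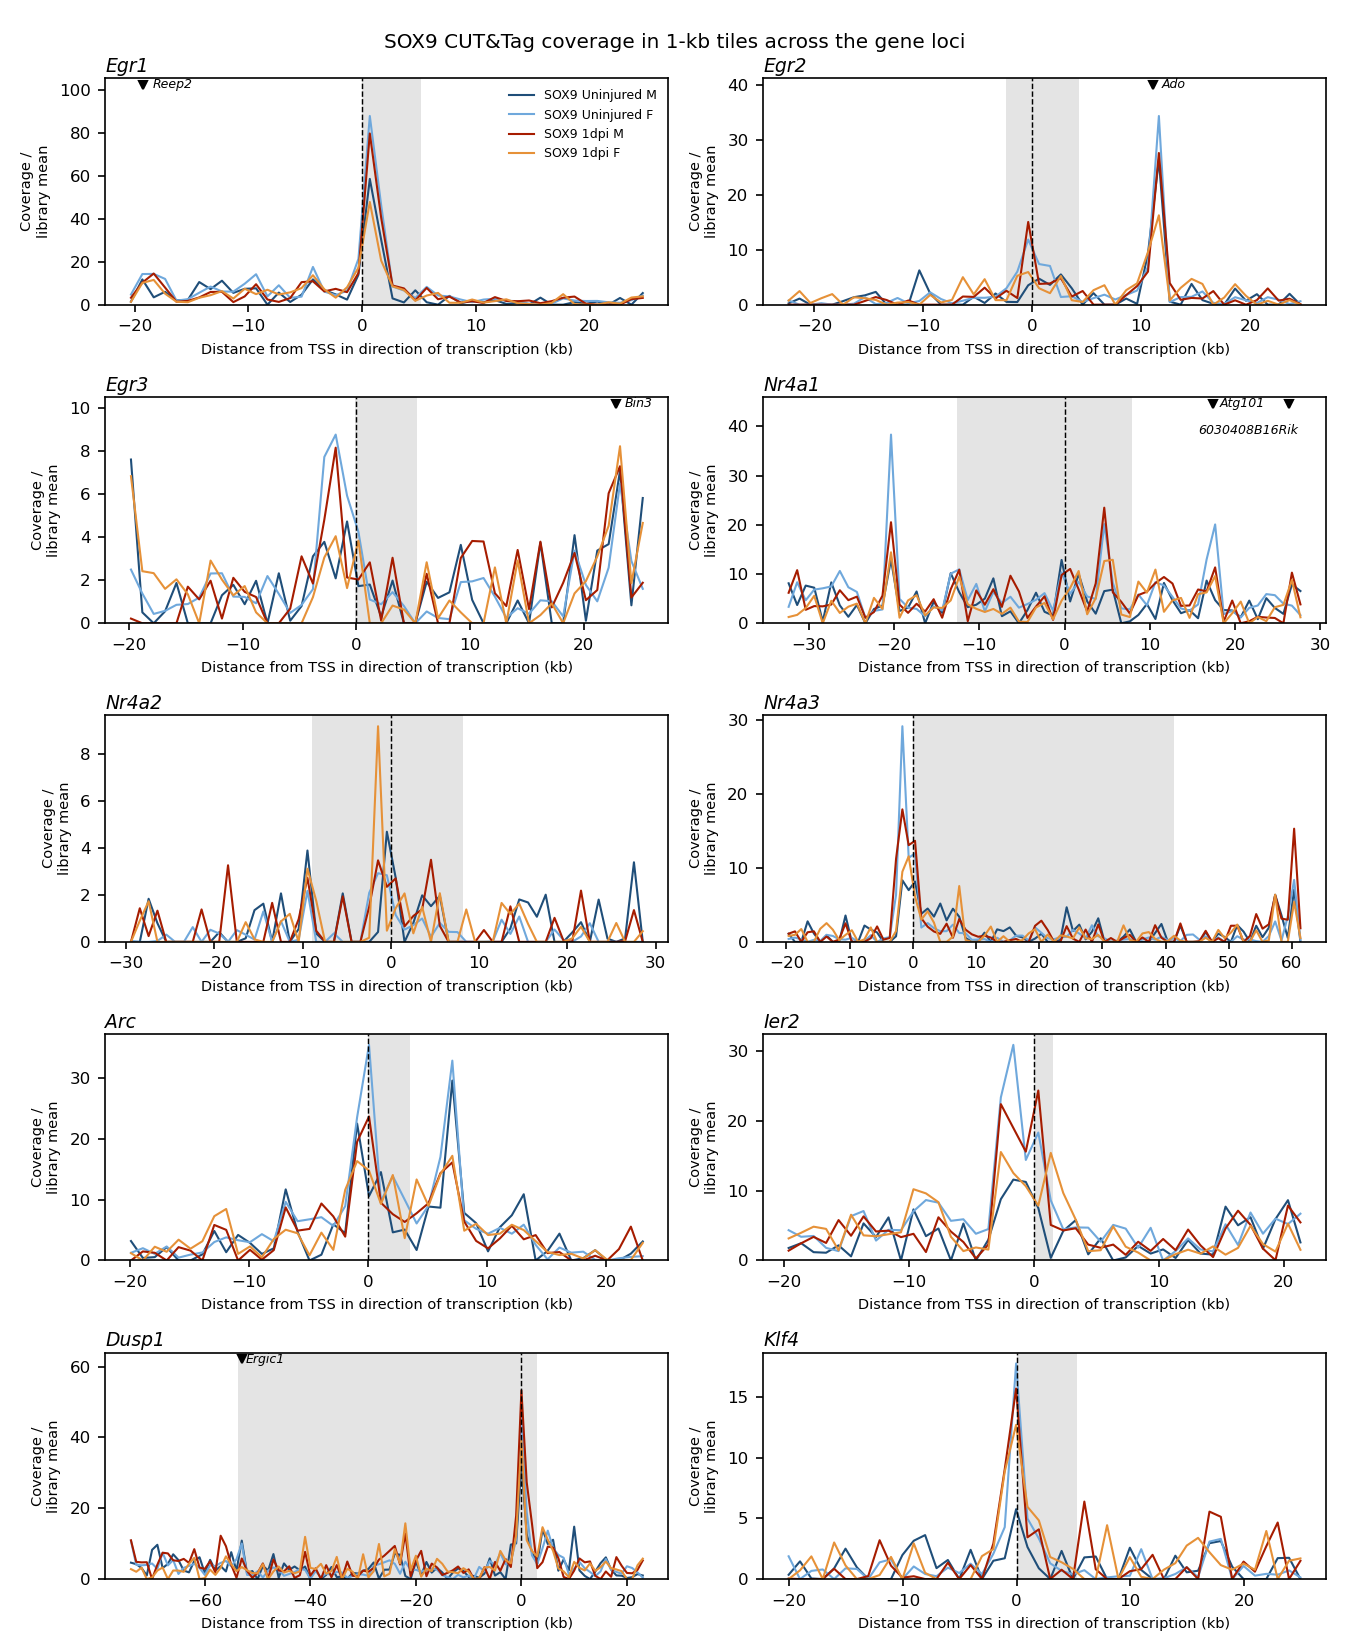
SOX9 coverage in 1-kb tiles as a multiple of the library mean (vertical axis, own scale in each panel) against the distance from the TSS in kb in the direction of transcription (horizontal axis), 1 line per SOX9 library, with the gene record shaded, the TSS dashed and triangles at the start sites of other coding genes. The highest single value is 88.1 at Egr1, 53.3 at Dusp1 and 9.18 at Nr4a2, and the tile with the highest mean lies at the neighbours Ado and Bin3 for Egr2 and Egr3.

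The highest tile of a locus, by the mean over the 4 SOX9 libraries, lay at the gene's own start in some loci and away from it in others. It was the highest in 4 of 4 libraries at Egr1, Egr2, Dusp1 and Klf4, in 3 at Nr4a1 and Nr4a3, in 2 at Nr4a2, Arc and Ier2 and in 1 at Egr3. At Egr1 it was chromosome 18, 34860001 to 34861000, in the transcribed region just downstream of the TSS, with 58.7 in uninjured M, 88.1 in uninjured F, 79.9 in 1 d.p.i. M and 47.9 in 1 d.p.i. F. At Dusp1 the tile that holds the TSS, chromosome 17, 26508001 to 26509000, was the highest, with 32.8 and 47.3 in uninjured cords and 53.3 and 39.2 at 1 d.p.i. The tile with the TSS was also the highest at Klf4, chromosome 4, 55532001 to 55533000, with 5.77 and 17.8 in uninjured cords and 15.7 and 12.7 at 1 d.p.i. In these 3 loci the conditions overlapped. Nr4a3 and Ier2 had their highest tile a short way upstream of the TSS, at chromosome 4, 48043001 to 48044000 (8.32, 29.1, 17.9 and 9.48) and at chromosome 8, 84664001 to 84665000 (11.6, 30.8, 18.9 and 12.5), in the order uninjured M, uninjured F, 1 d.p.i. M and 1 d.p.i. F. The female uninjured library was the highest at both. In 1 d.p.i. M the tile of Ier2 with the TSS was higher still, at 24.3. Nr4a1 had its highest tile upstream of the whole gene record, at chromosome 15, 101246001 to 101247000 (13.0, 38.4, 20.5 and 14.4 in that order). Arc had it, by the mean, past the 3′ end of the gene, at chromosome 15, 74665001 to 74666000, with 29.6 and 32.9 in the uninjured libraries (M and F) and 16.2 and 17.2 in those at 1 d.p.i. Here both libraries at 1 d.p.i. were lower than both uninjured ones, and the log2 change of −0.88 ± 0.62 did not pass the test (limma, unadjusted p = 0.153, adjusted p = 0.999). The tile with the Arc TSS was above it in uninjured F, at 35.5, and in 1 d.p.i. M, at 23.7. The highest tile of Nr4a2 and the single one tested there, chromosome 2, 57116001 to 57117000 in an intron, had 0.422 in uninjured M, 2.92 in uninjured F, 3.47 in 1 d.p.i. M and 9.18 in 1 d.p.i. F. Both libraries at 1 d.p.i. were the higher ones, with a log2 change of 1.80 ± 1.00 (limma, unadjusted p = 0.0723, adjusted p = 0.999). Both uninjured values were under the filter of 3 times the library mean. This tile was thus tested only through the libraries at 1 d.p.i., which favours a higher value there, and no conclusion is drawn from its direction. At Egr2 and Egr3 the highest tile was nearest to the TSS of a neighbour, Ado at chromosome 10, 67549001 to 67550000 (26.4, 34.4, 27.6 and 16.3) and Bin3 at chromosome 14, 70100001 to 70101000 (7.08, 6.49, 7.28 and 8.21), in the same order of libraries. A tile upstream of the Egr3 TSS was higher in uninjured F, at 8.75, and in 1 d.p.i. M, at 8.14.

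Around the TSS, the 10 genes differed in where the signal peaked. In bins of 100 bp over 2 kb on each side, the mean of all genes tested was highest in the bin just upstream of the TSS, at 9.90 and 22.8 in the uninjured libraries (M and F) and 15.2 and 11.8 in those at 1 d.p.i. The mean of the 10 genes peaked 100 to 200 bp upstream in 3 libraries, at 28.4 in uninjured F, 24.2 in 1 d.p.i. M and 16.2 in 1 d.p.i. F. In uninjured M it peaked 1100 to 1200 bp downstream, at 18.2. The downstream peak was that of Egr1, whose bin at 1100 to 1200 bp had 109 in uninjured M, 155 in uninjured F, 141 in 1 d.p.i. M and 66.1 in 1 d.p.i. F, the highest bin of any of the 10 genes. Egr2, Nr4a3, Arc and Dusp1 were highest 100 to 200 bp upstream of the TSS. The Dusp1 bin had 42.2 and 71.4 in uninjured cords and 73.1 and 57.0 at 1 d.p.i. Klf4 was highest at 300 to 400 bp upstream, with 6.36 and 28.9 in uninjured cords and 24.4 and 22.5 at 1 d.p.i. The highest bins of Ier2, Egr3, Nr4a1 and Nr4a2 lay over 1 kb from the TSS.

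**Figure D3:**
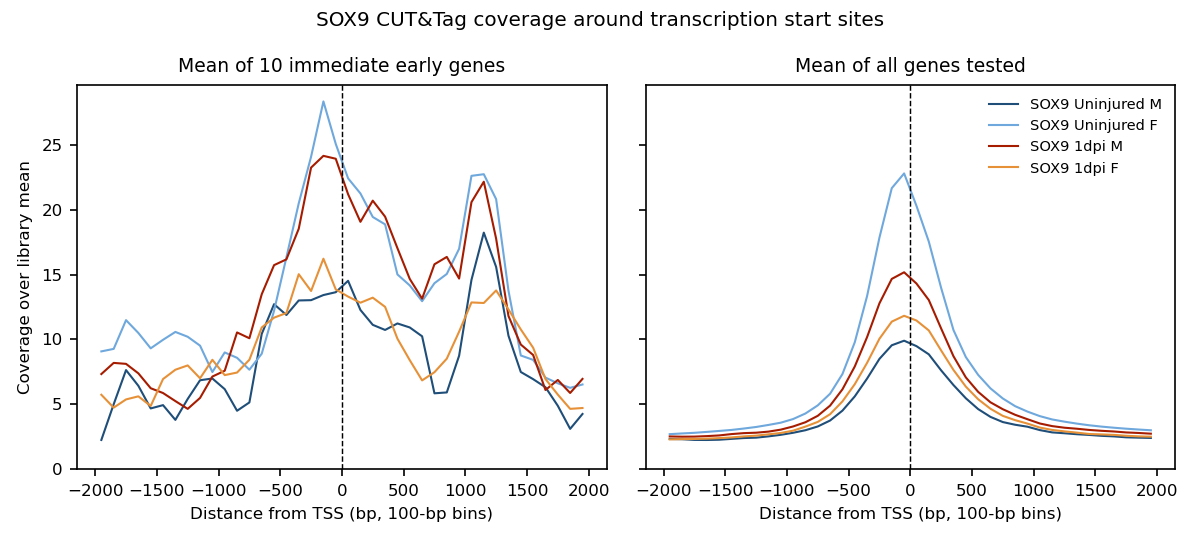
Mean SOX9 coverage in 100-bp bins as a multiple of the library mean (vertical axis) against the distance from the TSS in bp (horizontal axis), for the 10 genes (left) and all genes tested (right), 1 line per SOX9 library. The mean of the 10 genes reaches 28.4 in uninjured F and has a further peak at 1100 to 1200 bp, where Egr1 has 155 in that library, while all genes together peak at the TSS with at most 22.8.

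Most of the 10 promoters were rich in CpG dinucleotides. The ratio of observed to expected CpG over TSS ±1 kb was highest at Klf4 (0.864), followed by Ier2 (0.780), Nr4a2 (0.775), Nr4a3 (0.748), Egr3 (0.715), Dusp1 (0.711) and Egr2 (0.689), and lowest at Egr1 (0.559), Nr4a1 (0.555) and Arc (0.506). The median was 0.713 with a GC content of 59.6%, against 0.481 and 51.4% over all coding genes. At a ratio of 0.6 or more stood 7 of the 10 promoters and 34.7% of all. Median SOX9 coverage over the 4 SOX9 libraries was 8.39 at the 7585 promoters at or above that ratio, 1.75 at the 14268 below it and 9.66 at the 10 genes. CpG content did not order the members by signal, since Egr1 and Arc had low ratios and high coverage and Nr4a2 a high ratio and the lowest coverage.

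Promoter sequences from RefSeq (GRCm38.p6), with 250 bases before a start and 50 from it on, were matched to 6 of the 10 genes, Egr2, Nr4a1, Nr4a2, Nr4a3, Dusp1 and Klf4, and Egr1, Egr3, Arc and Ier2 had no entry. Letters of motifs known for factors that act on early genes, and of SOX cores, were searched on both strands, and a match is a description of the letters alone. The CRE core TGACG, which lies inside the full CRE TGACGTCA, was found in 6 of the 6 and in 20.8% of 32841 promoter sequences of the same length. The full CRE was found in Dusp1 and in 1.79% of all, and the CArG box of the serum response factor in Egr2 and in 1.63% of all. The SOX core ACAATG was found in Nr4a2 and in 12.6% of all, while the SOX core ACAAAG (18.7% of all), the AP-1 motif TGANTCA (7.81%) and the EGR motif GCGTGGGCG (0.612%) were found in 0 of the 6. The sequences of Dusp1, Egr2 and Nr4a2 are shown because each holds a motif that was not found in the other 5 of these 6, and that of Klf4 because its promoter had the highest log2 change. Capitals mark each match to a searched motif on either strand, so that CGTCA is the CRE core read from the other strand and CATTGT the SOX core. Dusp1 lies at chr17:26508423-26508722 on the minus strand, with the full CRE at bases 108 to 115 counted from the 5′ end, and its start is 47 bp from the TSS used above. Egr2 lies at chr10:67537619-67537918 on the plus strand, with the CArG box at bases 179 to 188, and starts at the TSS used above. Klf4 lies at chr4:55532426-55532725 on the minus strand, with its start 9 bp from the TSS used. Nr4a2 lies at chr2:57123954-57124253 on the minus strand, at the 5′ end of the gene record and outside the promoter window used above. Coverage over 1 kb on each side of that end was 2.12 and 1.09 in the uninjured libraries (M and F) and 1.60 and 2.43 in those at 1 d.p.i.
Dusp1: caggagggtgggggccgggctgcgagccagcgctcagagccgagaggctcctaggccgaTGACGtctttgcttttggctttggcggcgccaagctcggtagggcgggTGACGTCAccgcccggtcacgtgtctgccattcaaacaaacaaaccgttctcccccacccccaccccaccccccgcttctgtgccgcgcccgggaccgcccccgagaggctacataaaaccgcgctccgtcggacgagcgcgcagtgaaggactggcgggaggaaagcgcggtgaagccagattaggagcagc
Egr2: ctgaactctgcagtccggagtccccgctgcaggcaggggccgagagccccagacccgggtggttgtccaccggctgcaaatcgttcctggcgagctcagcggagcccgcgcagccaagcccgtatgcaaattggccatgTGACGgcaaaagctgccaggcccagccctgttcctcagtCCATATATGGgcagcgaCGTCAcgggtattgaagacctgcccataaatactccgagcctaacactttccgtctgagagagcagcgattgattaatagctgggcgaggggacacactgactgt
Klf4: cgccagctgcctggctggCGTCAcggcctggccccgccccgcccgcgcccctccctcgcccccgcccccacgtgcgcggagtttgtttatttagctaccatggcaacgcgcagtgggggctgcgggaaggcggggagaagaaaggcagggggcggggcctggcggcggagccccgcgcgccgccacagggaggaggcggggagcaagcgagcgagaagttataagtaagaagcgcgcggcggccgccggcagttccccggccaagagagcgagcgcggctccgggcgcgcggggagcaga
Nr4a2: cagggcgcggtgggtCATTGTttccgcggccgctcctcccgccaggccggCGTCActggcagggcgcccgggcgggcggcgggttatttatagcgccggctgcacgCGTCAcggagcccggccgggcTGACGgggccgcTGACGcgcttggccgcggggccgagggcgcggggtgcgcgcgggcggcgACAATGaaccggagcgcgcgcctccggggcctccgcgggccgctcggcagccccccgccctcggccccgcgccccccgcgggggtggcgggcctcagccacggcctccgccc

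Other genes of the rapid response were read at their promoters. Of 34 relatives and further rapid response genes (such as Egr4, the EGR-binding corepressors Nab1 and Nab2, other Klf, Dusp and Ier genes, Btg2, Npas4 and Myc), all 34 were tested, 21 were higher and 13 lower at 1 d.p.i., and limma called 0, with 0 at an unadjusted p under 0.05. Over all 18161 genes tested, which are also the background of the lists below, 8144 were higher and 10017 lower. Both libraries at 1 d.p.i. lay above both uninjured ones for 5 of the 34 (8.23% of all genes tested) and below both for 2 (14.5%). Their median log2 change was 0.29, against 0.018 for the 10 genes and −0.064 for all genes. The highest were Per1, a clock gene, with 12.9 in uninjured M, 29.8 in uninjured F, 33.6 in 1 d.p.i. M and 28.9 in 1 d.p.i. F, then Trib1, a pseudokinase, and Klf10. Trib1 had 11.9 and 22.8 in uninjured cords and 30.2 and 23.2 at 1 d.p.i., both above the uninjured values, with a log2 change of 0.66 ± 0.71 (limma, adjusted p = 1.00). Klf10 had 16.9 and 33.4 against 21.5 and 12.4, with overlapping conditions.

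Among 15 upstream regulators (Srf and its ETS and MRTF partners, CREB factors, Crebbp, Crtc1, MAP kinases and MEF2 factors), 14 were tested, with 6 higher, 8 lower and 0 called by limma, 0 of them at an unadjusted p under 0.05, and a median log2 change of −0.17. Mef2d had the highest promoter signal, with 15.3 and 42.9 in the uninjured libraries (M and F) and 33.4 and 30.7 in those at 1 d.p.i., followed by Creb1 with 16.8, 33.7, 19.5 and 15.5 and Crem with 14.4, 26.2, 23.0 and 16.8 in the same order. In each of the 3 genes the conditions overlapped. Mef2c, the gene not tested, was at 0 in both male libraries. Of the 8 AP-1 genes, 5 were higher and 3 lower with 0 called by limma and 0 at an unadjusted p under 0.05, and the median log2 change was 0.14. Jund had 34.8, 58.3, 46.2 and 35.0, Jun 26.7, 42.6, 37.9 and 42.3, and Junb 15.1, 23.2, 15.5 and 23.6. Jund was above Egr1 and Dusp1 in each SOX9 library, and Junb was close to Arc by the mean over the SOX9 libraries (19.3 and 19.4). Both libraries at 1 d.p.i. lay above both uninjured ones for 2 of the 8 AP-1 genes, Fos and Fosl1 (8.23% of all genes tested). They lay below both for 1, Fosb (14.5%).

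The coding genes whose promoter profile over the 4 SOX9 libraries was most like the median profile of the 10 genes were D1Ertd622e (Euclidean distance 0.0853 on the log2 scale), Prpf4b (0.171), Zfp27 (0.175), Nop53 (0.190) and Sbf2 (0.200). D1Ertd622e had 7.65 in uninjured M, 11.4 in uninjured F, 12.6 in 1 d.p.i. M and 8.61 in 1 d.p.i. F, next to medians of 7.65, 11.1, 12.9 and 9.05 for the 10 genes and 3.85, 6.86, 5.18 and 4.50 for all genes tested, in that order. The shared profile has the female library higher in uninjured cords and the male library higher at 1 d.p.i.

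Promoters of cell type markers were read in the same way, as SOX9 signal and not as expression. Summed over 7 astrocyte markers the coverage was 34.7 and 34.2 in the uninjured libraries (M and F) and 48.2 and 33.5 in those at 1 d.p.i., with Slc1a2 the highest (14.2, 13.7, 19.5 and 11.4). Sox9 itself had 4.39 and 3.77 in uninjured cords and 9.45 and 4.63 at 1 d.p.i., and Gja1 was at 0 in uninjured M. Of the 7, Sox9 was the 1 marker with both libraries at 1 d.p.i. above both uninjured ones (8.23% of all genes tested). For 2 markers, Slc1a3 and Aqp4, both libraries at 1 d.p.i. lay below both uninjured ones (14.5%). Over 5 oligodendrocyte markers the sum was 71.4, 110.3, 106.3 and 64.5, led by Mbp (24.1, 50.6, 50.8 and 27.8), in the order uninjured M, uninjured F, 1 d.p.i. M and 1 d.p.i. F. The sum over 5 neuron markers, led by Syt1, was 28.6, 44.5, 39.8 and 22.6 in that order. Microglia markers were low, with a sum of 8.71, 12.1, 10.9 and 11.5 over 5 genes led by Tmem119, and so were the 4 endothelial markers led by Cldn5, with 7.40, 7.96, 6.56 and 9.07. The 5 markers of infiltrating myeloid cells were the lowest, with sums from 0.0308 in 1 d.p.i. M to 2.39 in uninjured M. Lyz2, which led them, had 1.12 and Ly6c2 1.37 in their highest library, with S100a9 at 0 in all 4 libraries. Limma called 0 of the 26 marker genes tested, 0 of them at an unadjusted p under 0.05. Their part in the values of the 10 genes was not tested.

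In the controls the 10 genes had few fragments. The promoters held 0 to 3 fragments per gene and control library, 14 in all, with 32 of 40 values at 0, against 2 to 247 per gene and SOX9 library and 1624 in all. As a share of all fragments this is 0.0105% in the controls and 0.0116% in the SOX9 libraries. A single fragment in a promoter stands for 59.9, 29.1, 25.7 and 125 times the library mean in the controls (uninjured M, uninjured F, 1 d.p.i. M and 1 d.p.i. F) and for 0.720, 0.189, 0.539 and 0.571 in the SOX9 libraries. Arc had control values of 88.5 in uninjured M, 45.8 in uninjured F and 23.1 in 1 d.p.i. M, and Egr1 had 44.5 in uninjured F and 84.1 in 1 d.p.i. M. Egr2 had 43.5 in 1 d.p.i. M and Nr4a1 26.3 in uninjured F. These 4 genes were thus above their SOX9 levels in some controls, on 1 to 3 fragments, and 68 of the 79 control fragments that stood alone in the 10 loci matched a SOX9 fragment. Egr3, Nr4a2, Nr4a3, Ier2 and Klf4 had 0 fragments at the promoter in all 4 controls, which allows up to 3.69 fragments a library (95% Poisson interval). Control fragments numbered 30 over the bodies and 59 in the flanks, against 3339 and 6531 in the SOX9 libraries, shares of 0.0225% and 0.0442% in the controls and of 0.0238% and 0.0466% in the SOX9 libraries. The share of fragments at these genes was thus close in both kinds of library. Of the control fragments that stood alone, 82.3% to 93.5% matched a SOX9 fragment at both ends. The controls are therefore no separate background, and the close shares cannot show how far SOX9 signal exceeds one. A difference between SOX9 and control signal at single genes was not tested.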

How the data were processed

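Each library's coverage was deposited as whole numbers of fragments over stretches of the genome, which the authors had not scaled for depth, and the 8 libraries share 1 list of 20283253 stretches. Bowtie2 2.5.4 with mm10, Picard 3.4.0 for duplicates and SEACR 1.3 for peaks are named in the submitters' processing notes, and deML for demultiplexing in the methods. The step that wrote the coverage list is not given in the sources used here. In the list 0 stretches overlapped within a library, 0 of 14068322 abutting pairs had the same value and 0 ended past a chromosome end of GRCm38.

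Coverage was averaged over TSS ±1 kb (2001 bp), gene bodies, 20-kb flanks and 1-kb tiles with Python 3.11.15, numpy 2.4.6, scipy 1.17.1 and pandas 2.3.3, and divided by the library mean over 2725521370 bp. Genes and principal transcripts were taken from GENCODE M21. Each rise of the coverage was taken as the start of a fragment. The 4 SOX9 libraries were fitted on log2(value + 0.5) by limma 3.58.1 under R 4.3.3, with a mean-variance trend and Benjamini-Hochberg adjustment over all genes at a mean of at least 0.5 times, or tiles at 3 times, the library mean. The fit was tested on simulated promoters with independent noise, smaller than the spread of the real ones, and without a shift shared by a library. That test does not show how the fit behaves on these data. At promoters and in flanks the spread was pooled over all genes by the moderation step. Intervals on fragments are exact at 95%.

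Groups and sex came from the sample labels, and the M and F samples of the conditions are different animals. All 10 genes, the tile of each locus with the highest mean, the 3 genes with the highest promoter coverage in each list and the 5 most alike genes were named by rule. The members and lists were chosen with earlier results of these data known. Alternatives covered the pseudocount, filters, scaling, trend, fitted libraries, a block for sex, window sizes, the TSS used, other genes' start sites, depth and each SOX9 library left out. The number of per-library columns not used was 0.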

Additional observations from a re-analysis of the deposited data

Results flagged for a closer look

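For most of the 10 genes the male and the female libraries pointed in opposite directions. The median log2 change at 1 d.p.i. was 0.61 in M and −0.63 in F at promoters, 0.46 in M and −0.33 in F over gene bodies, and 0.11 in M and −0.26 in F in the flanks. At promoters, 8 of the 10 genes were higher in M and lower in F, against 6 over bodies, where 3 were higher in both, and 6 in flanks. Their log2 changes in M and F were 0.36 and −0.56 for Egr1, 1.20 and −0.92 for Egr2, 0.14 and −0.47 for Nr4a1, and 0.76 and −0.41 for Nr4a3. Arc had 0.45 and −1.10, Ier2 1.28 and −0.74, Dusp1 0.92 and −0.26, and Klf4 1.79 and −0.14. Since each sex had a single library per condition, whether M and F differ was not tested. Over all genes tested the medians were 0.42 in M and −0.54 in F at promoters, 0.083 in M and −0.14 in F over bodies, and 0.090 in M and −0.15 in F in flanks. At promoters 55.1% of these genes were higher in M and lower in F. The shares over bodies and in flanks were not computed, so the counts of members there have no level of the genome to be read against. The uninjured libraries, the shallowest (M) and the deepest (F) of the 4 SOX9 libraries, enter both differences, and the part of depth was not tested.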

How the results depend on the processing

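None of the 10 genes was called under any of 45 alternatives over the 3 windows, and 9 of 10 alternatives for tiles called 0 tiles in their loci, the exception being the fit without uninjured F. Of 428 log2 changes of members under an alternative, 381 kept their direction and 47 reversed, and the cause was not tested. No member log2 change was called, so none carries a called direction. The reversed ones were not all close to 0. At the Nr4a2 promoter the change was −0.60 as reported and 0.42 with 2 kb on each side of the TSS. For Dusp1 it was 0.33 at the promoter as reported and −1.42 at the 5′ end of the gene record. That end lies 53609 bp from the Dusp1 TSS used and close to the TSS of Ergic1, so the 2 values belong to different places.

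The number of coding genes called at promoters, 2 as reported, was 1 with a pseudocount of 2, 0 without a filter, 1 with a filter at 2 times the library mean, 10 with scaling by the median log ratio, 0 in a fit of all 8 libraries, 1 with sex as a block, 0 with a window of 500 bp on each side, 1 at the 5′ end of the gene record and 0 with libraries thinned to 1891276 fragments each, which left mean coverage at 0.155 to 0.183. Over bodies the number was 0 as reported, 4 in the fit of all 8 libraries and 270 with sex as a block. In flanks it was 5 as reported, 16 with scaling by the median log ratio, 1 without the trend, 0 with all 8 libraries, 3 with sex as a block, 3 with 10 kb on each side, 10 without other start sites and 3 with thinned libraries. For tiles it was 68 as reported, 0 without the trend, 102 with scaling by the median log ratio, 44 in tiles of 2 kb and 25 with sex as a block. Leaving out 1 SOX9 library, where a lone library is assumed to vary like the other condition, gave 0 to 0 at promoters, 0 to 33 over bodies, 0 to 41 in flanks and 13 to 638 for tiles. The sex block pairs libraries of different animals by sex alone and called 0 members in each window.

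At promoters the log2 change became 0.092 for Egr3 and −0.14 for Ier2 with 500 bp on each side, −0.014 for Egr2, 0.42 for Nr4a2 and −0.043 for Nr4a3 with 2 kb on each side, 0.28 for Nr4a2 and −1.42 for Dusp1 at the 5′ end of the gene record, and 0.13 for Egr1 with thinned libraries. Over bodies it became 0.028 for Nr4a1 with scaling by the median log ratio, 0.028 for Nr4a1 and 0.032 for Arc without TSS ±1 kb, and 0.0073 for Egr1 and 0.037 for Egr2 with thinned libraries. In flanks it became 0.082 for Egr1, −0.13 for Egr3 and 0.050 for Nr4a1 with 10 kb on each side, and for Egr3 −0.040 without other start sites and −0.033 with thinned libraries. With each SOX9 library left out in turn, promoter changes ranged from −0.39 to 0.18 for Egr1, −0.44 to 0.72 for Egr2, −0.98 to −0.13 for Egr3, −0.53 to 0.20 for Nr4a1, −1.09 to −0.12 for Nr4a2, −0.14 to 0.49 for Nr4a3, −0.75 to 0.11 for Arc, −0.26 to 0.80 for Ier2, 0.034 to 0.63 for Dusp1 and 0.031 to 1.62 for Klf4. Body changes ranged from −0.49 to 0.15 for Egr1, −0.43 to 0.32 for Egr2, −0.37 to 0.061 for Egr3, −0.24 to 0.23 for Nr4a1, 0.16 to 0.34 for Nr4a2, −0.38 to 0.068 for Nr4a3, −0.49 to 0.17 for Arc, 0.031 to 1.93 for Ier2, 0.26 to 0.42 for Dusp1 and 0.13 to 0.77 for Klf4. Flank changes ranged from −0.31 to 0.12 for Egr1, −0.061 to 0.17 for Egr2, −0.052 to 0.065 for Egr3, −0.41 to 0.10 for Nr4a1, −0.20 to 0.49 for Nr4a3, −0.28 to 0.032 for Arc, −0.38 to 0.24 for Ier2, −0.31 to 0.0092 for Dusp1 and 0.26 to 0.32 for Klf4. Members passed the threshold of 0.05 before adjustment 6 times and after it 0 times, namely the Klf4 promoter with scaling by the median log ratio (0.91) and without uninjured F (1.62), Dusp1 at the 5′ end of the gene record (−1.42), the Ier2 body without uninjured F (1.93), the Nr4a2 body without TSS ±1 kb (0.48) and the Klf4 flanks with thinned libraries (0.53). Before adjustment 783 of 18161 coding genes passed it at promoters under that scaling, and 328 of 18116 at the 5′ end of the gene record. The numbers were 824 of 16940 over bodies without TSS ±1 kb and 563 of 17540 in flanks with thinned libraries. The fits without uninjured F leave a single uninjured library, and their counts are not given. These 6 results therefore set no member apart. Counts limit the lowest members, with 2 to 12 fragments at the Nr4a2 promoter in a SOX9 library, and the controls, in which a single fragment exceeds the SOX9 level of most members.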
